A study of Pistacia chinensis with 8 samples.

Results

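Bisexual inflorescence buds of Chinese pistache (Pistacia chinensis) were compared with male inflorescence buds, stage by stage, by their miRNA read counts. The comparison used 4 of the 8 small RNA libraries of the series, chosen by the sex type given in the labels: bisexual buds at stages B and C of floral development, and male buds at the same stages. The bisexual buds came from strain T2, which also gave the monoecious female buds, and are labelled monoecious bisexual (spelled monoeicous there), while the male buds came from strain X1. The other 4 libraries, monoecious female buds (T2) and female buds (C1) at both stages, entered the estimate of spread and are given where they help to read a value. Flowers of both kinds of bud bear stamens, so the comparison asks which miRNAs differ between buds that also form a pistil and buds that form stamens alone. Sex type, sexual system and strain changed together between the 2 bud types and cannot be told apart. Each sex type and stage was 1 library, and the labels do not say whether a library came from 1 tree or from a pool.

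Plant miRNAs are short RNAs that are cut from hairpin precursors and guide Argonaute proteins to transcripts with a matching site, which are then cleaved or translated less. The hairpin gives a duplex of a 5p and a 3p strand, of which 1 strand is usually kept and the other is usually degraded. Many plant miRNAs that are shared between species target transcription factors, and some of these set the identity of floral organs, the change of phase and the development of anthers. The miRNAs here are the rows of the authors' table: 385 with a species prefix and a family number, such as osa-miR398b (osa for rice), and 86 predicted miRNAs, called novel_ and a number. A row named after another species states a match to that species' miRNA, and rows of 1 family can hold the same reads. The table holds miRNAs alone, so the tissue could not be checked against mRNA markers of anthers or pistils.

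The libraries differed most in depth. Bisexual buds had 160129 reads on miRNA rows at stage B and 492859 at stage C, and male buds had 859476 and 419169. Levels are reads scaled to 1000000 per library after TMM correction (CPM), and 3 reads, the floor used where a library had 0, stand for 18.4 CPM in bisexual buds at stage B and 3.77 to 5.55 CPM in the other 7 libraries. The bisexual library of stage B also stood apart in content. Among rows with at least 50 reads in both libraries of a pair, the median absolute log2 ratio was 0.839 to 1.03 in the 3 stage B pairs with bisexual buds and 0.343 to 0.628 in the 3 pairs without them. These ranges rest on unlike sets of rows, 72 to 75 in the pairs with bisexual buds and 123 to 130 in those without. In the shallow library 50 reads stand for a higher CPM, so rows low in it drop out. For bisexual against male buds the median was 0.875 at stage B over 72 rows and 0.451 at stage C over 133 rows. The rank correlation of the 248 tested rows between bisexual and male buds was 0.76 at stage B and 0.92 at stage C, as a description across rows of libraries with unequal depth. The scaling matters at stage B, where RLE factors would raise every bisexual to male ratio by 0.24 on the log2 scale and plain totals by 0.39, against 0.01 and 0.04 at stage C. TMM factors computed on family sums would lower it by 0.87 at stage B and 0.08 at stage C.

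Ratios at the 2 stages were first set side by side, with no replicate check. A row counted as higher or lower at a stage if its ratio of CPM was at least 2-fold and the exact binomial 95% interval of the ratio excluded 1. Such an interval reflects counting error alone, and without molecular identifiers copies made by PCR cannot be set apart. Among the 208 rows with at least 50 reads in the 4 libraries together, 46 rows (22.1%) were higher and 63 (30.3%) lower in bisexual buds of stage B. At stage C, 21 rows (10.1%) were higher and 19 (9.13%) lower. Both stages gave 10 rows (4.81%) that were higher and 5 rows (2.4%) that were lower in bisexual buds. Of these, 5 of the 10 and 3 of the 5 were predicted miRNAs, which made up 42 of the 208 rows. In 9 rows (4.33%) the direction was opposite at the 2 stages. In whole buds, fewer cells of a type and less of an RNA per cell cannot be told apart, and this holds for every difference given here.

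**Figure D1:**
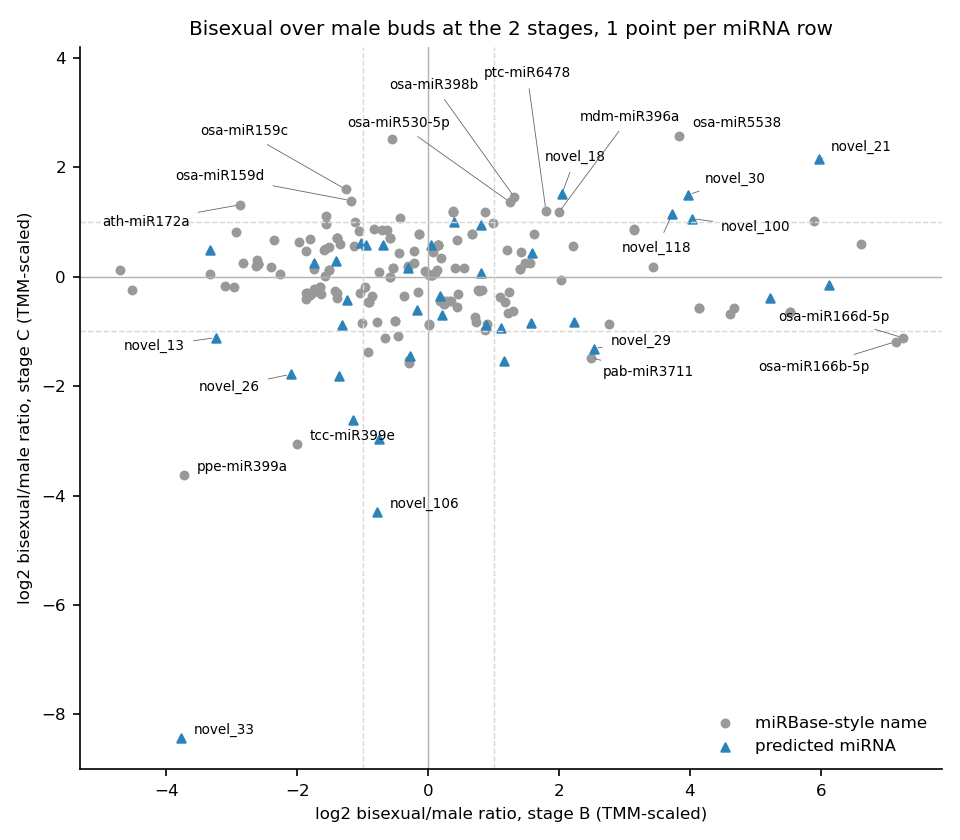
The log2 ratio of bisexual over male CPM is plotted for each row with at least 50 reads in the 4 libraries and a ratio at both stages, stage B on the x axis and stage C on the y axis. Dashed lines mark 2-fold, triangles are predicted miRNAs, a library at 0 reads is drawn at the floor of 3 reads, and novel_33 lies alone at the lower left while the spread is wider along stage B.

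A test over all 8 libraries, edgeR's quasi-likelihood test with stage and sex type as additive terms, called 1 row at a Benjamini-Hochberg adjusted p under 0.05 (0.403% of 248 rows tested), novel_33, which fell in bisexual buds. The test had 3 residual degrees of freedom, and its spread is how far sex types differ between the stages, not a spread between trees. An unadjusted p under 0.05 was reached by 28 rows (11.3%), of which 14 had a positive and 14 a negative log2 change. DESeq2 called 14 rows, novel_33 among them. It also called osa-miR166d-5p, osa-miR166b-5p and novel_19 as higher in bisexual buds, though their stage C ratios were 0.462, 0.439 and 0.760. The rows zma-miR396g-5p and osa-miR396a-3p were called too, with ratios of 98.0 and 59.6 at stage B and 1.52 and 2.03 at stage C. Without the bisexual library of stage C, edgeR called 71 rows, and without the female library of either stage or the male library of stage C it called 0.

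The predicted miRNA novel_33 was close to absent from bisexual buds and abundant in male buds. It had 0 reads in bisexual buds at stage B and 2 at stage C, against 167 and 574 reads in male buds. With the floor of 3 reads for the 0 at stage B, the level in bisexual buds was 13.6-fold lower than the 251 CPM of male buds. The 95% interval of that ratio reached up to 0.0912. At stage C it was 3.07 CPM in bisexual buds and 1063 CPM in male buds, a ratio of 0.00289 (95% interval 0.000349 to 0.0105). The fitted log2 change was -8.40 (SE 0.89, edgeR adjusted p = 0.0196), a value that depends on the prior count because of the zeros. The monoecious female buds of the same strain had 0 reads at both stages, and the female buds had 209 reads at stage B and 598 at stage C. The row thus held 0 to 2 reads in the 4 T2 libraries and at least 167 in the 4 libraries of strains C1 and X1. The call was lost without the female library of stage B (adjusted p = 0.0682), the female library of stage C (0.0698) or the male library of stage C (0.0587), and in a fit of the 4 bisexual and male libraries alone (0.867).

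Another predicted miRNA, novel_106, had reads in male buds only. Bisexual buds had 0 reads at both stages, and male buds had 21 reads at stage B and 49 at stage C, while the 4 monoecious female and female libraries also had 0. With the read floor in place of each 0, its level in bisexual buds was 1.71-fold lower than in male buds at stage B and 19.7-fold lower at stage C. The 95% interval of the ratio reached up to 0.784 at stage B, where the shallow library limits the bound. At stage C the interval reached up to 0.0649. The row novel_106 did not pass the test (edgeR log2 change -8.44, SE 1.75, adjusted p = 0.235). No row was at 0 in both male libraries with at least 10 reads in each bisexual library. In the shallow bisexual library of stage B, 10 reads stand for a higher CPM than in the male one, so this rule is hard to meet. The predicted miRNA novel_36 missed it, with 0 reads in both male libraries and 1 and 11 reads in bisexual buds at stages B and C. Monoecious female buds had 8 and 22 reads of novel_36, and female buds 3 and 5. Its log2 change was 5.69 (SE 1.45, edgeR adjusted p = 0.235).

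**Figure D2:**
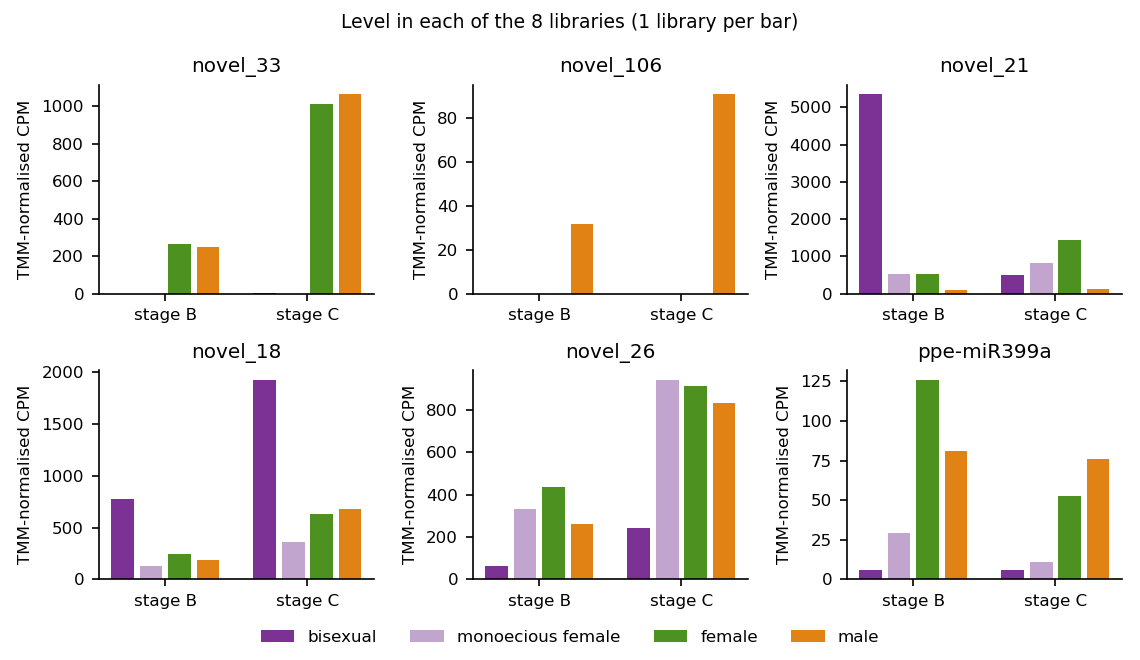
Bars give the TMM-normalised CPM of 6 miRNAs in each of the 8 libraries, 1 library per bar, by stage and sex type. The bars of novel_33 are at or near 0 in bisexual and monoecious female buds, those of novel_106 stand in male buds alone, and novel_21 is highest in bisexual buds at stage B.

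The 10 rows at least 2-fold higher in bisexual buds at both stages had stage B ratios of 2.37 to 62.5 and stage C ratios of 2.09 to 5.97, and 8 of them had the larger ratio at stage B. None passed the edgeR test. The largest stage B ratio was that of novel_21, and the largest stage C ratio that of osa-miR5538. novel_21 held 872 reads (5347 CPM) in bisexual buds at stage B and 326 reads (501 CPM) at stage C. Male buds had 57 reads (85.6 CPM) and 61 reads (113 CPM) of it. The bisexual to male ratio of novel_21 was 62.5 (47.8 to 83.2) at stage B, while at stage C it was 4.43 (3.36 to 5.93). Its log2 change was 4.86 (SE 1.27, edgeR adjusted p = 0.235). At stage C the bisexual level was below those of monoecious female buds, 811 CPM, and female buds, 1432 CPM, so there the male library was the low one.

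The predicted miRNA novel_18 was higher in bisexual buds than in each of the other libraries of the same stage. It held 779 CPM at stage B and 1923 CPM at stage C in bisexual buds, 130.2 and 359 CPM in monoecious female buds, 244 and 633 CPM in female buds, and 189 and 678 CPM in male buds. Set against male buds, its ratio was 4.12 (3.19 to 5.31) at stage B, while at stage C it was 2.84 (2.52 to 3.20), and the log2 change was 1.76 (SE 0.49, edgeR adjusted p = 0.235). DESeq2 called it at an adjusted p of 0.00295. Of the other rows higher at both stages, DESeq2 also called novel_21, novel_30, novel_118 and mdm-miR396a. Of those lower at both stages it called novel_33, novel_26, ppe-miR399a and tcc-miR399e.

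The predicted miRNAs novel_30 and novel_118 were high in both T2 bud types at stage B. novel_30 held 448 CPM in bisexual buds at stage B and 52.2 CPM at stage C, against 28.5 and 18.5 CPM in male buds, and monoecious female buds held 272 and 86.5 CPM. novel_118 held 1055 and 484 CPM in bisexual buds, against 79.6 and 218 CPM in male buds, with 469.6 and 509.6 CPM in monoecious female buds. Their log2 changes were 2.79 (SE 0.77, edgeR adjusted p = 0.235) for novel_30 and 2.62 (SE 0.87, edgeR adjusted p = 0.369) for novel_118. novel_100 rested on few reads at stage B, 8 in the bisexual and 2 in the male library, and held 306 CPM in bisexual and 146 CPM in male buds at stage C. It stood at 49.1 CPM in bisexual and 48.0 CPM in monoecious female buds at stage B. At stage C monoecious female buds held 407 CPM of it.

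Rows with a family name were also among the 10. osa-miR398b belongs to a family that targets transcripts of copper/zinc superoxide dismutases and accumulates when copper is short. It held 337 and 1611 CPM in bisexual buds at stages B and C, against 135 and 589 CPM in male buds. The ratio was 2.50 (1.75 to 3.53) at stage B, while at stage C it was 2.74 (2.41 to 3.11), and the log2 change was 1.37 (SE 0.52, edgeR adjusted p = 0.380). mdm-miR396a, of a family that targets growth-regulating factors, held 760.3 and 439 CPM in bisexual buds, against 191 and 194 CPM in male buds. Monoecious female buds held 550 and 308 CPM of mdm-miR396a, and female buds 171 and 213 CPM. ptc-miR6478, a name from poplar, held 497 and 1421 CPM in bisexual buds, against 143 and 615 CPM in male buds. At stage B monoecious female buds held 494 CPM of it. At stage C it stood at 1164 CPM in monoecious female and 1366 CPM in female buds, and osa-miR398b at 1281 and 1078 CPM. For these 2 rows the male library was thus the low one of the 4 at stage C. The direction in all 10 rows is fixed by how they were chosen.

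The other 2 named rows were less abundant. osa-miR530-5p held 110.4 and 43.0 CPM in bisexual buds, against 46.5 and 16.7 CPM in male buds. osa-miR5538 had 7 and 36 reads in bisexual buds, against 2 and 5 reads in male buds, and its ratio at stage B, 14.3, had an interval of 2.72 to 141.

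Among the rows lower in bisexual buds at both stages, 2 were of miR399, a family known for targeting the phosphate regulator PHO2 and for accumulating when phosphate is short. ppe-miR399a had 1 and 4 reads in bisexual buds at stages B and C, against 54 and 41 reads in male buds. Its ratio was 0.0756 (0.00188 to 0.440) at stage B, while at stage C it was 0.0809 (0.0211 to 0.223), with a log2 change of -3.52 (SE 0.76, edgeR adjusted p = 0.235). tcc-miR399e had 3 and 9 reads in bisexual buds, against 49 and 62 reads in male buds, ratios of 0.250 and 0.120 and a log2 change of -2.58 (SE 0.66, edgeR adjusted p = 0.235). In monoecious female buds ppe-miR399a was also low, at 29.1 and 11.2 CPM, whereas tcc-miR399e stood at 129 and 88.1 CPM. The whole miR399 family, 15 rows, differed less, with 809 and 358 CPM in bisexual buds against 937 and 681 CPM in male buds.

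The other 2 were predicted miRNAs. novel_26 held 61.3 and 243 CPM in bisexual buds, against 263 and 835 CPM in male buds, and it was lower in bisexual buds than in each other library of the same stage, which held 334 and 436 CPM at stage B and 941 and 914 CPM at stage C in monoecious female and female buds. Its log2 change was -1.90 (SE 0.52, edgeR adjusted p = 0.235). novel_13 held 141 and 1109 CPM in bisexual buds, against 1333 and 2398 CPM in male buds, ratios of 0.106 and 0.462.

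**Figure D3:**
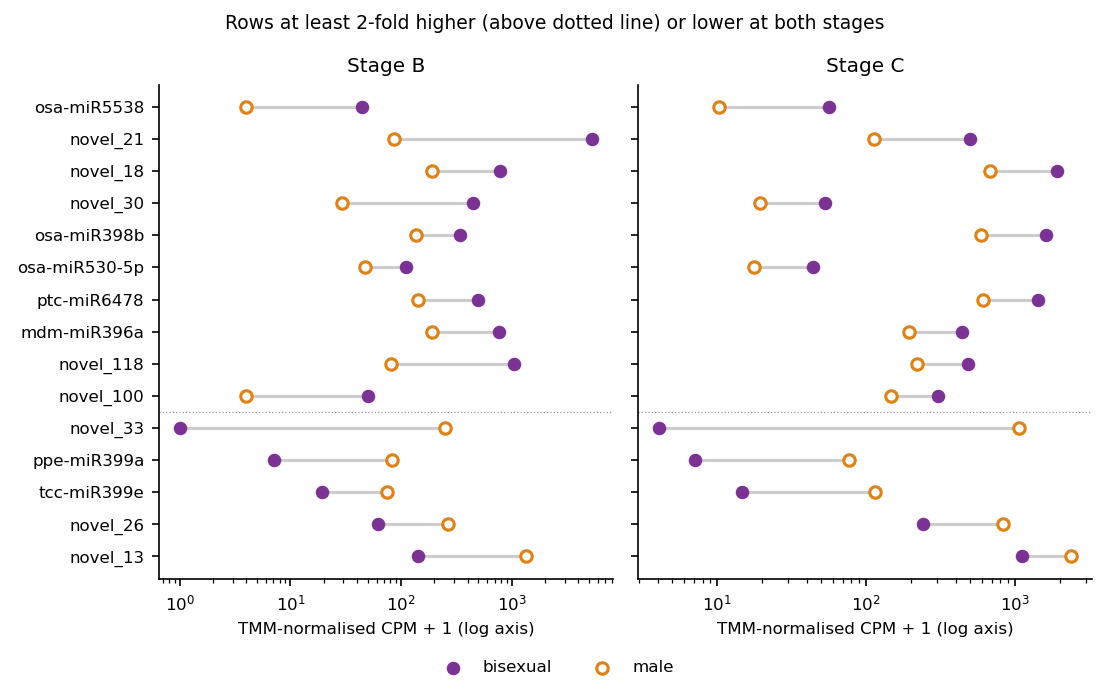
Filled points give bisexual and open points male CPM + 1 on a log axis, at stage B (left) and stage C (right), for the 10 rows at least 2-fold higher (top) and the 5 rows at least 2-fold lower in bisexual buds at both stages. A line joins the 2 libraries of a stage, and above the dotted line the longest are those of novel_21 at stage B and osa-miR5538 at stage C, while below it novel_33 has the longest at both stages.

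Reads were then summed per family, both strands together, since rows of a family share reads. The sums count shared reads more than once, so the intervals of family ratios are too narrow. Of 96 families and single predicted miRNAs tested, edgeR called 1 (1.04%), novel_33, and none of the 38 named families. That count was 0 without the male library of stage B, either female library or the male library of stage C, and 25 without the bisexual library of stage C. At stage B, 32 of 88 features with a ratio (36.4%) were at least 2-fold higher and 19 (21.6%) at least 2-fold lower in bisexual buds. At stage C, 13 of 95 (13.7%) were at least 2-fold higher and 16 (16.8%) lower. The median log2 change over all 96 was 0.08. In each list of named families given here, 0 families were called by edgeR, 0 had an unadjusted p under 0.05 and 0 were called by DESeq2, so their values are given as a description.

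Of the families of phase change and flowering time, miR172 alone had enough reads for a narrow interval at both stages. miR172, which targets AP2-like genes of floral organ identity and flowering time, held 515 and 472 CPM in bisexual buds, against 510.4 and 437 CPM in male buds (log2 change 0.06, SE 0.43). Its ratios were 1.01 (0.785 to 1.28) and 1.08 (0.908 to 1.28). miR156, which targets SPL genes and marks the juvenile phase, had 0 and 49 reads in bisexual buds, against 18 and 38 in male buds. With the read floor in place of the 0, the stage B level of miR156 in bisexual buds was 1.47-fold lower. It was 1.39-fold lower with near-identical rows counted once. The 95% intervals of these ratios reached up to 0.929 and 0.990, so the size of the difference is open down to nearly none. miR535, which also targets SPL genes, had 1 and 8 reads in bisexual buds, against 2 and 12 in male buds, and a stage C ratio of 0.553 (0.196 to 1.47). The single row ath-miR172a differed from its family, with 1 and 33 reads in bisexual buds against 30 and 11 in male buds.

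The 9 families of floral organ and meristem regulators had log2 changes of -0.86 to 0.20, with a median of -0.14, and 7 of the 9 were negative, of which miR159, miR164 and miR319 turned positive under RLE factors and under totals. miR166, which targets HD-ZIP III genes of organ polarity and meristems, held 403139 and 282989 CPM in bisexual buds, against 626570 and 350462 CPM in male buds (log2 change -0.47, SE 0.25). miR165, which differs from it by few bases and shares its targets, held 417 and 507 CPM in bisexual buds, against 1315 and 578 CPM in male buds. At stage B the ratios of these 2 families, 0.643 and 0.317, were below 1, and at stage C they were 0.807 and 0.877.

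miR159, which targets GAMYB-like genes needed in anthers, held 325776 and 215090 CPM in bisexual buds, against 389290 and 196073 CPM in male buds. Its log2 change was -0.05 (SE 0.24), a sign that turned under RLE factors (0.07) and under totals (0.15). miR319, which targets TCP genes of organ growth, had a log2 change of -0.03 (SE 0.29), which also turned, to 0.09 and 0.18. miR171, which targets GRAS genes of meristem upkeep, held 2434 and 6358 CPM in bisexual buds, against 3472 and 9374 CPM in male buds, with ratios of 0.701 and 0.678. miR396 held 26158 and 24867 CPM in bisexual buds, against 33721 and 14873 CPM in male buds, and miR394, which targets an F-box gene of the shoot meristem, held 681 and 2503 CPM against 1491 and 1690.4 CPM. Both had ratios below 1 at stage B, 0.776 and 0.457, and above 1 at stage C, 1.67 and 1.48. miR164, which limits organ boundary genes of the NAC family, had ratios of 1.14 and 0.700. miR169, which targets NF-YA genes, had 2 and 64 reads in bisexual buds, against 5 and 56 in male buds.

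Among the auxin families the 2 that target auxin response factors were low in the bisexual library of stage B. miR160 held 202 and 1227 CPM in bisexual buds, against 1151 and 1049.8 CPM in male buds, a stage B ratio of 0.176 (0.120 to 0.249) and a stage C ratio of 1.17 (1.05 to 1.30). miR167, whose targets act in anthers and ovules of Arabidopsis, held 2557 and 8449 CPM in bisexual buds, against 7422 and 9870.2 CPM in male buds. miR390, which starts the TAS3 pathway, had ratios of 1.70 and 0.822. miR393, which targets the auxin receptors TIR1 and AFB, had 1 and 143 reads in bisexual buds, against 6 and 24 in male buds, and a ratio of 4.94 (3.19 to 7.97) at stage C. Nearly all its reads were in 1 row, ata-miR393-5p, which held 201 CPM in bisexual buds at stage C, against 35.2 CPM in male buds, with 175 CPM in monoecious female and 227 CPM in female buds, so the male library was the low one of the 4.

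Of the nutrient and copper families, miR398 held 349.5 and 3258 CPM in bisexual buds, against 206 and 1459 CPM in male buds (log2 change 0.97, SE 0.42, edgeR adjusted p = 0.360). miR395, which targets genes of sulphate uptake and assimilation, held 202 and 485 CPM in bisexual buds, against 76.6 and 279.6 CPM in male buds (log2 change 1.03, SE 0.64). miR408, another copper-responsive family, had 0 and 446 reads in bisexual buds, against 49 and 245 reads in male buds. The male reads of stage B were 16 when near-identical rows were counted once. With the floor of 3 reads for the 0 the ratio was then 0.766, against 0.250 for the sums. The interval of the ratio counted once reached 1.06, so no stage B difference was detectable. Its stage C ratio was 1.51 (1.29 to 1.77), and 1.52 (1.16 to 2.01) counted once.

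In the silencing machinery list, miR403, which targets AGO2, held 1239 and 656 CPM in bisexual buds, against 125 and 598 CPM in male buds, and miR168, which targets AGO1, held 613 and 1163 CPM against 593 and 1279 CPM. The stage B ratio of miR403 was 9.94 (7.66 to 13.0) and its stage C ratio was 1.10 (0.947 to 1.27), whereas both miR168 ratios, 1.03 and 0.909, lay near 1. Of the families that target disease resistance genes, miR482 held 2477 and 676 CPM in bisexual buds, against 862 and 555 CPM in male buds, and miR472 had 1 and 16 reads against 39 and 15. miR858, which targets MYB genes, had ratios of 0.805 and 1.14. miR845, which targets retrotransposons in Arabidopsis pollen, had 2 and 8 reads in bisexual buds, against 7 and 15 in male buds, and the intervals of both ratios included 1. With near-identical rows counted once its stage C ratio was 0.277 (0.0786 to 0.800). The tree families miR477 and miR473, which target GRAS genes, had 48 and 237 reads (miR477) and 2 and 9 reads (miR473) in bisexual buds, against 235 and 269 reads and 2 and 7 reads in male buds.

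The 10 named families outside the lists had a median log2 change of 2.40, and all 10 were positive, against 52 of 96 features overall. They cannot be taken as 10 separate measurements, since the counts of miR5139, miR8155 and miR1511 lay within 5 reads of each other in every library. None was called by edgeR or DESeq2, and 2 had an unadjusted p under 0.05. At stage B, 9 of the 10 were at least 2-fold higher in bisexual buds, against 32 of the 88 features with a ratio (36.4%). At stage C the median log2 ratio of the 10 was -0.56, against -0.08 over all features. The stage B values rest on the shallow bisexual library, and TMM factors of family sums would lower each by 0.87 in log2. miR8175 had the largest stage B ratio of those with reads in all 4 libraries. It had 182 and 51 reads in bisexual buds, against 29 and 63 reads in male buds. The 3 families with nearly the same counts had 13 to 18 reads in bisexual buds at stage B, against 0 in male buds, although that male library was the deeper one. At stage C they had 21 to 23 reads in bisexual buds, against 26 to 28 in male buds.

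**Figure D4:**
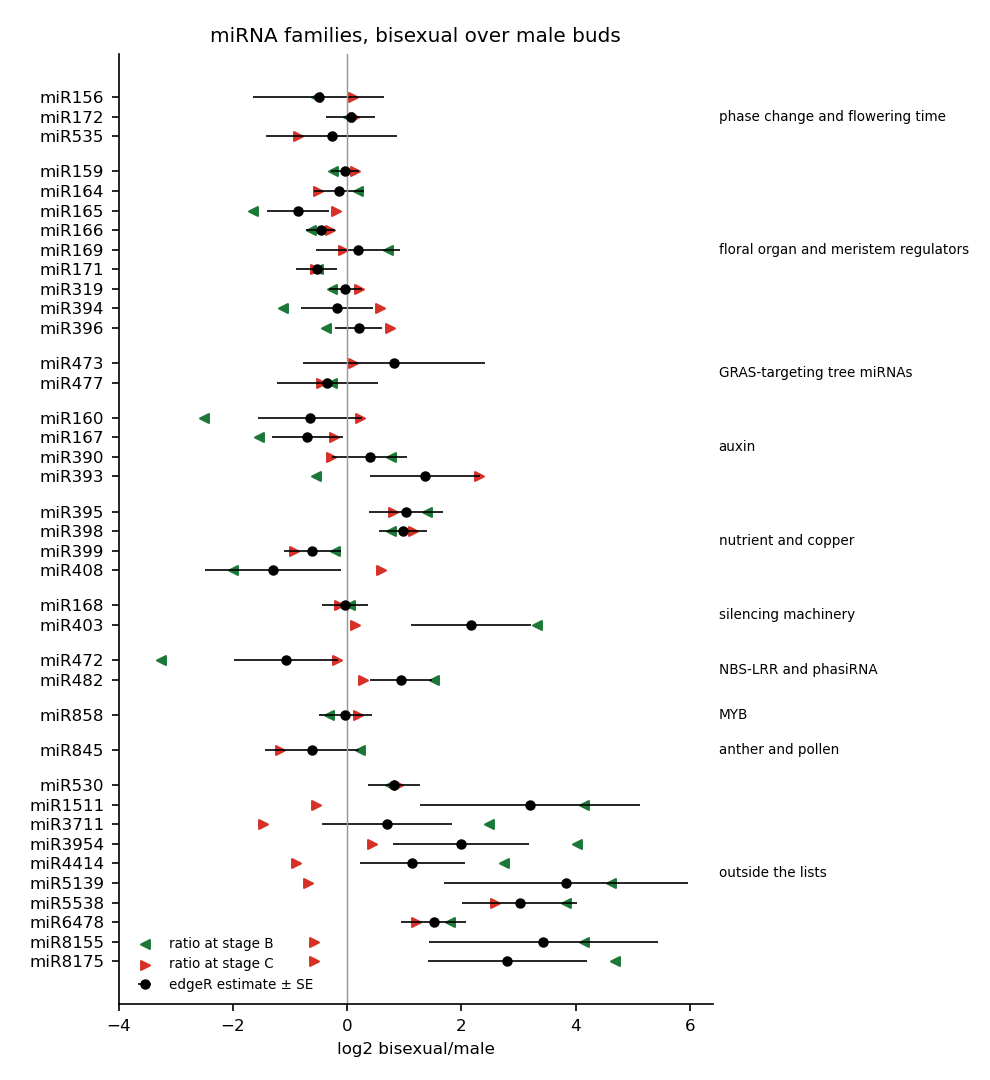
Each named family tested is a line, grouped by list, with the edgeR log2 change of bisexual over male buds and its SE in black and the log2 ratio at stage B and at stage C as triangles. The black points of miR159, miR168, miR172 and miR319 lie near 0, and for miR160, miR403, miR472, miR5139 and miR8175 the 2 stages lie far apart.

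Whether the difference itself changed between the stages was tested with edgeR as a contrast, bisexual minus male at stage C less bisexual minus male at stage B. It was called in 32 of 248 rows (12.9%), 30 groups when near-identical rows of a family are joined, with 20 negative and 12 positive, and in 20 rows under totals and in 11 rows under a filter of 50 reads. A negative value means that the row stood higher in bisexual relative to male buds at stage B than at stage C. This test had 1 residual degree of freedom, and its spread came from the female and monoecious female libraries alone. All of the bisexual side at stage B rests on the shallow library that stood apart, and its part in the result was not tested.

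The lowest adjusted p was that of osa-miR166d-5p, the 5p strand of miR166 hairpins, whose 3p strand is the one that targets HD-ZIP III genes. It had 9704 reads (59502 CPM) in bisexual buds at stage B and 490 reads (753 CPM) at stage C, against 260 reads (390.3 CPM) and 880 reads (1629 CPM) in male buds. The ratio was 152 (135 to 173) at stage B, while at stage C it was 0.462 (0.413 to 0.516), and the log2 change between stages was -8.37 (SE 1.12, edgeR adjusted p = 3.67e-10). Monoecious female and female buds at stage B held 980.2 and 346 CPM, so the bisexual library was the high one. osa-miR166b-5p moved in the same way, with 311 and 18 reads in bisexual buds against 9 and 34 reads in male buds.

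Several miR166 rows with no strand in their name went the other way. osa-miR166m held 4537 and 17515 CPM in bisexual buds, against 45829 and 16876 CPM in male buds, a change of 3.39 (SE 0.98, edgeR adjusted p = 0.00782). cme-miR166i held 644 and 4652 CPM in bisexual buds, against 4912 and 2649 CPM in male buds. Of rows in other families, gma-miR167i had 0 and 359 reads in bisexual buds, against 283 and 351 reads in male buds. At the male level of stage B the bisexual library would have given 69.3 reads of it. In the same way osa-miR160e-5p had 0 and 83 reads in bisexual buds, against 75 and 56 reads in male buds.

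Predicted miRNAs were also called. novel_19 had 1854 and 318 reads in bisexual buds, against 202 and 347 reads in male buds, a change between stages of -5.62 (SE 1.06, edgeR adjusted p = 1.10e-05). novel_29 held 3035 and 247 CPM in bisexual buds, against 525 and 615 CPM in male buds, and was thus above the male level at stage B and below it at stage C. pab-miR3711 showed the same order, with 386 and 24.6 CPM in bisexual buds against 69.1 and 68.5 CPM in male buds. The opposite order was seen in ath-miR172a, a change of 4.14 (SE 1.47, edgeR adjusted p = 0.0420), and in osa-miR159c and osa-miR159d, which were not called. osa-miR159c held 49.1 and 78.3 CPM in bisexual buds, against 117 and 25.9 CPM in male buds.

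Because the 5p rows of miR166 differed from other rows of the family, the rarer named strand was taken as a share of its family's reads, near-identical rows counted once, in the 6 families with at least 50 reads of each strand in the 4 libraries. This summary was chosen after the values were seen. Rows outside the near-identical rule can still share reads, so the family totals may count some reads more than once. For miR168, aau-miR168, with no strand in its name, had 29 reads in bisexual buds at stage B, as many as the 3p rows. The shares are thus of summed row counts, and their intervals are too narrow where reads are shared. For miR166 the 5p strand was 27.1% of reads in bisexual buds at stage B (95% Wilson interval 26.6 to 27.5%), against 0.120% in male buds (0.106 to 0.135%). At stage C it was 0.525% in bisexual buds (0.482 to 0.573%) and 0.934% in male buds (0.875 to 0.996%). The 3p strand of miR167 was 23.8% of reads in bisexual buds at stage B (19.3 to 29.0%), against 3.54% in male buds (2.96 to 4.22%), and 4.93% against 6.34% at stage C. The 3p strand of miR396 was 11.2% in bisexual buds at stage B, against 3.40% in male buds, and 5.02% against 8.96% at stage C.

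The point value was larger in bisexual than in male buds at stage B in 5 of the 6 families, and smaller at stage C in all 6, where the intervals of miR159 and miR167 overlapped. The exception at stage B was miR390, with 0.588% in bisexual buds, 1 read, against 1.43% in male buds. Its intervals overlapped there. In miR168 the intervals of the 2 bud types overlapped at stage B, at 36.7% in bisexual buds (26.9 to 47.7%) and 26.3% in male buds (21.4 to 31.9%). In the rows that carry miR396 names, 5p and 3p names shared nearly the same reads, as in ath-miR396a-5p and zma-miR396g-3p with 589 reads each in bisexual buds at stage B, so strand names there are uncertain.

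**Figure D5:**
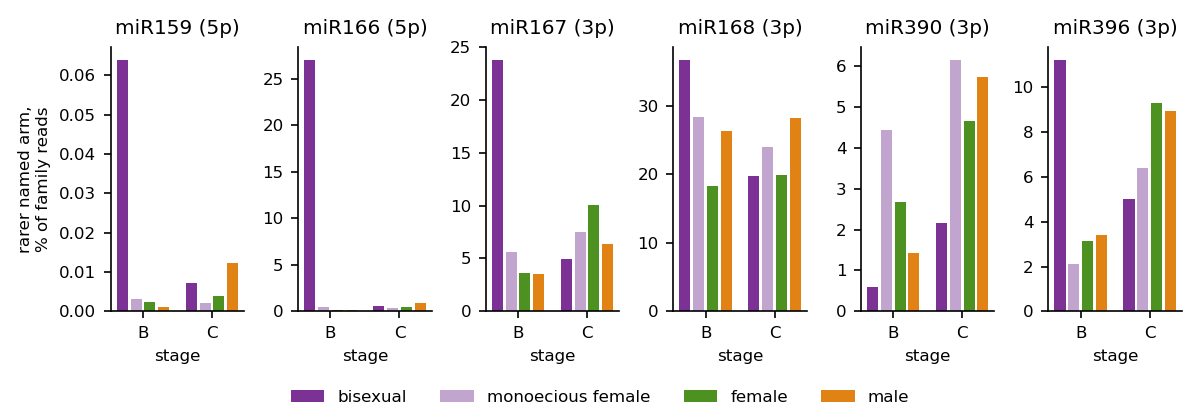
Bars give the rarer named strand of 6 families as a percentage of the family's reads in each of the 8 libraries, by stage and sex type, each panel with its own axis from 0. The bisexual bar of stage B is the tallest of its panel in miR159, miR166, miR167, miR168 and miR396, and in miR390 it is the lowest.

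The 5 most abundant rows were ath-miR159a and 4 miR166 rows with no 5p in their name. gma-miR166u held 78902 and 62914 CPM in bisexual buds, against 143508 and 79882 CPM in male buds (log2 change -0.59, SE 0.27, edgeR adjusted p = 0.478). ath-miR159a held 121432 and 119848 CPM in bisexual buds, against 203372 and 113240 CPM in male buds (log2 change -0.28, SE 0.30, edgeR adjusted p = 0.794). The other 3 rows, cpa-miR166e, zma-miR166h-3p and ath-miR166a-3p, had stage B ratios of 0.528 to 0.534 and stage C ratios of 0.724 to 0.731. These 3 rows form 1 group of near-identical rows, so the 5 rows are at most 3 distinct measurements. Reads may also be shared between gma-miR166u and that group. At stage B gma-miR166u had 12868 reads in bisexual and 95598 in male buds, and ath-miR166a-3p had 10799 and 83589. All 5 rows were lower in bisexual than in male buds at stage B, and at stage C ath-miR159a had a ratio of 1.06.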

How the data were processed

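Small RNA was extracted from inflorescence buds and made into libraries with a NEBNext small RNA kit, per the labels' protocols. The authors deposited raw read counts for 471 miRNA rows and TPM values, which equal count over column total times 1000000 within 4.29e-05. The submitters' processing notes name CASAVA 1.8 and Bowtie. Genome build and miRBase version were not given in the sources used here. Counts alone were analysed, and 0 count columns were unmatched. No sequences of the rows were used here.

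The main test was the quasi-likelihood F-test of edgeR 4.0.16 (R 4.3.3), with TMM factors, additive stage and sex type, all 8 libraries, 3 residual degrees of freedom and a common dispersion of 0.268. It took the 248 rows that reached 10 reads in 2 or more libraries, with Benjamini-Hochberg adjustment over all rows tested. P-values measure the sex type by stage spread. The change between stages was fitted with 1 residual degree of freedom (common dispersion 0.083). SEs are the absolute log2 change over the square root of F. Ratios use TMM-scaled CPM with exact conditional binomial 95% intervals, and 0 reads were set to a floor of 3 reads per library to give a ratio. Families are the number in the name, their reads summed, which counts shared reads more than once, and kept on the row scaling, a choice made after the data were seen. Near-identical rows were rows of 1 family within 5% or 2 reads in every library (195 rows in 63 groups). Named are called rows, rows at least 2-fold at both stages (up to 12 per direction), every tested family of 9 lists of named families, up to 6 rows of opposite direction, rows at 0 in 1 bud type, and the 5 most abundant rows. Other rows were named after their values were seen. The comparison, lists and rules were chosen with earlier results of these data known. The fits were tested on simulated data, drawn with less spread than the main test found and with rows that share no reads. Those runs do not show how well the fits do on these data. Alternatives were RLE factors, totals, other filters, DESeq2 1.42.0, near-identical rows once, the most abundant row per family, other folds, and leaving out libraries.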

Additional observations from a re-analysis of the deposited data

Results flagged for a closer look

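The difference between bisexual and male buds changed between stage B and stage C in 32 rows by edgeR's quasi-likelihood test of that contrast. The values here are log2, bisexual minus male at stage C less the same at stage B, and each is fitted on 1 residual degree of freedom. Where a library had 0 reads the size depends on the prior count.

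Negative values, higher in bisexual relative to male buds at stage B than at stage C, were found in 20 rows. Among predicted miRNAs they were -8.53 for novel_75, -6.08 for novel_54, -5.62 for novel_19, -4.55 for novel_81, -3.84 for novel_29, -3.82 for novel_21 and -3.48 for novel_72. Among 5p rows of miR166 and miR159 they were -8.37 for osa-miR166d-5p, -8.30 for osa-miR166b-5p and -6.11 for both gma-miR159a-5p and gma-miR159e-5p, which hold the same counts. The miR396 rows zma-miR396g-5p and osa-miR396a-3p had -5.95 and -4.85. Rows of less widely shared families had -9.68 for rgl-miR5139, -9.10 for cpa-miR8155 and for ppe-miR1511-3p, -5.25 for ath-miR8175, -3.95 for pab-miR3711 and -3.64 for mtr-miR4414a-5p. ath-miR403-3p had -3.25.

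Positive values were found in 12 rows. They were 10.70 for gma-miR167i, 9.32 for osa-miR160e-5p, 8.50 for osa-miR171i-3p and for stu-miR171b-3p, 7.69 for gma-miR171m and 4.80 for mtr-miR171c. The miR166 rows cme-miR166i, osa-miR166m and gra-miR166c had 3.74, 3.39 and 3.03, and ath-miR172a had 4.14. The predicted miRNAs novel_25 and novel_47 had 8.40 and 3.79. In gma-miR167i, osa-miR160e-5p, osa-miR171i-3p, stu-miR171b-3p, gma-miR171m and novel_25 the bisexual library of stage B had 0 reads.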

How the results depend on the processing

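No paired analysis was possible because each group holds 1 library, so no replicate numbers pair samples, and stage is a term of the test itself. The 1 row called became 14 under DESeq2 and 0 in a fit of the bisexual and male libraries alone, and 0 to 71 when 1 library was left out: 0 without female B, female C or male C, and 71 without bisexual C. The 1 family feature called became 7 under DESeq2 and 0 to 25 when 1 library was left out: 0 without female B, male B, female C or male C, and 25 without bisexual C. A group left with 1 library is assumed to vary like the others. The 32 rows whose difference changed between stages became 20 under totals, 20 with no filter beyond 1 read and 11 with at least 50 reads. Leaving out libraries was not run for that contrast. The 10 rows higher at both stages became 2 at 4-fold and 6 with TMM factors of the family table, an alternative chosen after seeing the data, which lost novel_100, osa-miR398b, osa-miR530-5p and ptc-miR6478. The 5 lower rows became 2 at 4-fold, 3 with at least 200 reads, 4 under totals, which lost tcc-miR399e, and 12 with those factors. With 1 stage alone the counts were 21 to 46 higher and 19 to 63 lower. None of the 15 rows that were at least 2-fold at both stages turned its sign under the alternatives run. Their direction was fixed by how they were chosen, so this is no check of it. The call of novel_33 held in 11 of 15 alternatives. With near-identical rows counted once, family ratios moved by over 1.5 times in miR408 at stage B (0.250 for the sums, 0.766 counted once) and miR845 at stage C (0.442 and 0.277).

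Family changes near 0 turned sign, in log2. Under RLE factors miR159 had 0.0683, miR164 0.00403, miR168 0.0857, miR319 0.0879 and miR858 0.0750. Under totals they had 0.15, 0.11, 0.18, 0.18 and 0.16 in that order. With the most abundant row per family, miR172 had -0.29, miR319 0.0834 and miR396 -0.43. With TMM factors recomputed on the family table, miR169 had -0.16, miR172 -0.43, miR390 -0.20 and miR396 -0.23. When 1 library was left out, ranges that crossed 0 were -0.84 to 0.13 for ath-miR159a, -7.41 to 0.39 for miR156, -0.33 to 0.17 for miR159, -2.76 to 0.39 for miR160, -0.56 to 0.20 for miR164, -1.90 to 0.0164 for miR167, -0.17 to 0.0410 for miR168, -0.0659 to 0.56 for miR169, -0.10 to 0.22 for miR172, -0.23 to 0.11 for miR319, -0.77 to 1.11 for miR390, -1.09 to 0.48 for miR394, -0.24 to 0.56 for miR396, -7.72 to 0.17 for miR408, -0.47 to 3.17 for miR473, -1.29 to 0.46 for miR477, -1.28 to 2.05 for miR535, -1.30 to 0.45 for miR845 and -0.44 to 0.26 for miR858. The cause was not tested. The 160129 reads of bisexual buds at stage B limit every low row there.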
